A study of Saccharomyces cerevisiae with 12 samples.

Results

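The genes described here are 10 iron acquisition genes of the budding yeast Saccharomyces cerevisiae, listed as targets of the iron regulator Aft1 that serve siderophore binding, ferric reduction and iron uptake. They are the cell wall genes FIT1, FIT2 and FIT3, the siderophore transporter genes ARN1, ARN2 and SIT1, the high-affinity uptake genes FET3 and FTR1, and the reductase genes FRE1 and FRE2. All 10 were found among 7127 yeast rows by their SGD identifiers, and all 10 were among the 6127 genes with enough counts to be tested. RNA came from strain BY4742, labelled WT, in SD medium of 4 compositions, named as in the labels: 0.5SD1K (0.5% glucose, 1 mM potassium), 0.5SD7K (0.5% glucose, 7 mM potassium), 2SD1K (2% glucose, 1 mM potassium) and 2SD7K (2% glucose, 7 mM potassium). Each medium had 3 biological replicates, and p-values measure the spread among these. All groups share 1 haploid strain of mating type alpha with deletions at his3, leu2, lys2 and ura3. The iron content of the media and the growth stage at harvest are not given in the sources used here. Potassium restriction is 1 against 7 mM potassium, and glucose restriction is 0.5% against 2% glucose.

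Yeast takes up iron by routes that work side by side at the cell surface. Ferric reductases such as Fre1 and Fre2 turn ferric iron into the ferrous form, which the multicopper oxidase Fet3 and the permease Ftr1 carry across the plasma membrane as a pair. Yeast makes no siderophores, the iron chelators of other microbes, but the Arn family of transporters takes up iron bound to them, and the Fit mannoproteins of the cell wall help to hold siderophore iron near the cell. When iron is short, the transcription factor Aft1 activates the genes of these routes through sites with the core CACCC.

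The sequences before the start codons are shown because the genes were listed together as targets of Aft1, whose sites have the core CACCC. In the 500 bases before the start codon (genome build R64), the letters TGCACCC, read on either strand, occurred in 9 of the 10 genes, against 2.32% of 5987 such windows in the genome. The shorter GCACCC, which every TGCACCC contains, was also found in 9 genes, against 7.62% of windows, and CACCC in all 10, against 33.4%. FRE1 lacked both longer forms and held 1 match to ACACCC, which was found in 4 of the genes and 10.8% of windows. FIT2 held 4 matches to TGCACCC, FIT1, FIT3 and FTR1 held 2 each, and ARN1, ARN2, SIT1, FET3 and FRE2 held 1 each. Since the genes were picked as Aft1 targets, these counts are a description. For each gene with a TGCACCC match, the 36 bases around the one nearest to the start codon are given 5′ to 3′ on the strand of the gene, with GCACCC or its reverse complement GGGTGC in capitals.
FIT1 (chrIV:1505062-1505097, minus strand): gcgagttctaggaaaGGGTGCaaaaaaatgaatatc
FIT2 (chrXV:1059385-1059420, plus strand): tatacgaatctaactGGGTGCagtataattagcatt
FIT3 (chrXV:1061219-1061254, minus strand): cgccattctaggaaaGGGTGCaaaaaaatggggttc
ARN1 (chrVIII:21210-21245, minus strand): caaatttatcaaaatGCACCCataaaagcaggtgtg
ARN2 (chrVIII:10640-10675, minus strand): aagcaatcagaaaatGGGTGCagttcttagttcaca
SIT1 (chrV:27454-27489, plus strand): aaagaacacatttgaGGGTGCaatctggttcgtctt
FET3 (chrXIII:388557-388592, plus strand): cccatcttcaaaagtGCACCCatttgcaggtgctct
FTR1 (chrV:461894-461929, minus strand): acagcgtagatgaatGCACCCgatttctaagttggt
FRE2 (chrXI:11635-11670, minus strand): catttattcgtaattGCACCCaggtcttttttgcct

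The longest stretch that any pair of these windows shared, both read along their gene, belonged to FIT1 and FIT3 and spanned 25 bases, ttctaggaaaGGGTGCaaaaaaatg. It began 192 bases before the start codon of FIT1 and 194 bases before that of FIT3. The next longest shared stretch in any pair was 11 bases.

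**Figure D1:**
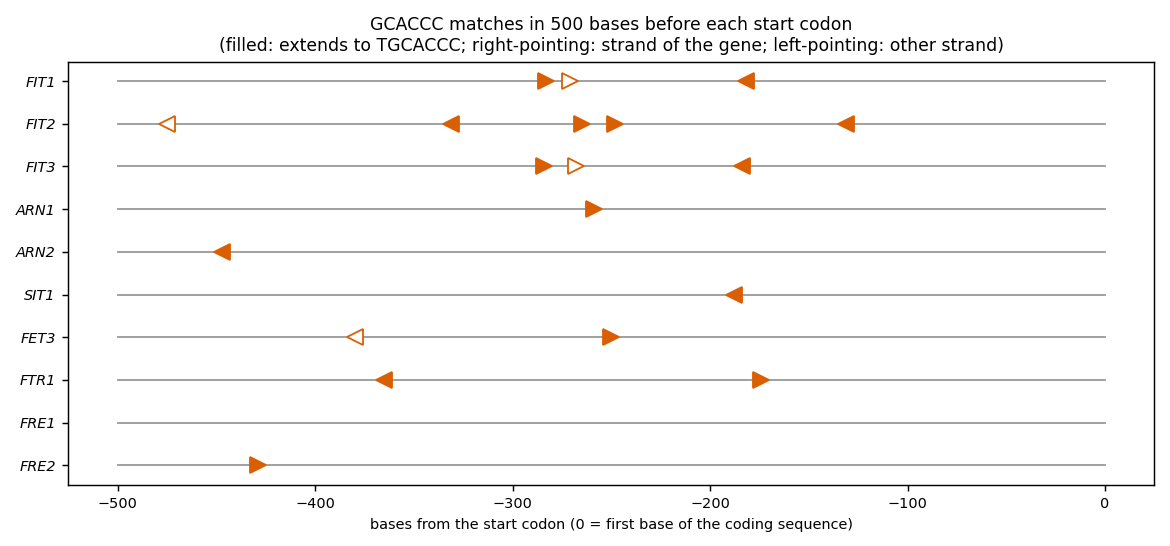
Position of each GCACCC match in the 500 bases before the start codon of the 10 genes, in bases from the start codon. Filled markers extend to TGCACCC, and right-pointing markers lie on the strand of the gene, left-pointing ones on the other. FIT2 has 5 matches, FIT1 and FIT3 have 3 each, and FRE1 has none.

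The 300 bases before the start codon are printed whole for SIT1, which differed most between media, and for FIT2 and FIT3, neighbours whose levels ran apart. They hold 1 match in SIT1 and 3 each in FIT2 and FIT3, in capitals.
SIT1 (chrV:27357-27656, plus strand): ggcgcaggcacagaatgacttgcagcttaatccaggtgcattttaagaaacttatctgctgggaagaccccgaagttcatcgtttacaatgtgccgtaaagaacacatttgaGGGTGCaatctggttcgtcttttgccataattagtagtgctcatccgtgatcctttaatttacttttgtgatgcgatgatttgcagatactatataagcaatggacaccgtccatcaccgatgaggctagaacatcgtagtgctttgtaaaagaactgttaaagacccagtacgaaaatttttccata
FIT2 (chrXV:1059231-1059530, plus strand): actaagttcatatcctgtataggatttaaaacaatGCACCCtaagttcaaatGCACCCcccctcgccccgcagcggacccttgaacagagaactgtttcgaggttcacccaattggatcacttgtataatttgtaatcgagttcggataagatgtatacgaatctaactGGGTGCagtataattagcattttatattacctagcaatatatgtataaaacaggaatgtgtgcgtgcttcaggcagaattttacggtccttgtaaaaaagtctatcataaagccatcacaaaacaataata
FIT3 (chrXV:1061056-1061355, minus strand): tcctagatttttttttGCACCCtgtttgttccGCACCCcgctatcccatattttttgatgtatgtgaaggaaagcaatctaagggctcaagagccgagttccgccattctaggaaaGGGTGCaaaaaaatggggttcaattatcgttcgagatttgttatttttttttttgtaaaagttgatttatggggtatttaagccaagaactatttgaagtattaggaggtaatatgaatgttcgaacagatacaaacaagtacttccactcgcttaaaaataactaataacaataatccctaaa

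The libraries held 5634205 to 7036345 counts at yeast rows, and the 10 genes had 51 to 2754 counts in a library. Levels are CPM, counts scaled to the yeast total of the library, after TMM scaling. They are shares of the yeast RNA, so fewer cells that express a gene and less RNA per cell cannot be told apart. Replicate 2 of 0.5SD7K stood apart: across genes, which are not independent, its mean correlation with its partners was 0.886, against 0.935 to 0.991 in the other 11 libraries. Where a value of the 10 genes given here changes its call or direction without it, this is stated here or in the closing section. As strain checks, LEU2, LYS2, URA3 and the a-factor genes MFA1 and MFA2 had 0 counts in all 12 libraries, and HIS3, a partial deletion in this strain, had 3.70 to 177 CPM. Each log2 fold change is given with its standard error (SE), and each mean CPM with the standard deviation (SD) over n = 3. A gene was called where the edgeR p, adjusted by Benjamini-Hochberg over all 6127 genes, was under 0.05.

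The 10 genes did not move as 1 block. Potassium restriction at 2% glucose changed 4 of them, against 28.1% of all genes tested: FET3 rose (13.1% of all genes did), and FIT2, FIT3 and FRE1 fell (15.0%). Potassium restriction at 0.5% glucose changed 3, against 48.4% of all genes. All 3, FIT2, ARN1 and SIT1, fell (24.9% fell and 23.5% rose among all genes). Without any 1 replicate of 0.5SD7K it changed 4, and without replicate 2 FIT3 was among them and rose. Without that replicate 2, 29.6% of all genes rose and 28.2% fell. Glucose restriction at 7 mM potassium changed 2, against 33.9%: SIT1 rose (16.9%) and FRE1 fell (17.0%). The first of these counts was 2 without 2SD7K replicate 1 or any replicate of 2SD1K, and 1 without 2SD7K replicate 3. In those fits 1075 to 1289 of all genes tested were called, against 1719 in the main fit. The last count was 6 without 0.5SD7K replicate 2 and 1 without 2SD7K replicate 3. Of all genes tested, 2701 of 6164 and 1486 of 6166 were called there, against 2077 of 6127.

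At 1 mM potassium, glucose restriction changed 6 of the 10, against 34.8% of all genes: FIT3 and ARN2 rose (16.3%), and FIT1, FIT2, SIT1 and FET3 fell (18.4%). This count rested on single libraries. It was 1 without 2SD1K replicate 3, 2 without 2SD1K replicate 1 or 0.5SD1K replicate 1 or 2, and 3 without 2SD7K replicate 2. It was 0 without 0.5SD1K replicate 3. In those fits 1670 to 1942 of all genes tested were called, against 2130 in the main fit. Both restrictions against neither changed 2, against 47.4%: FIT2 and FRE1 fell (24.5% fell and 22.8% rose among all genes). The interaction asks whether the potassium effect differed between glucose levels. It was called for 2 genes, against 29.9%: positive for FIT3 (14.8%) and negative for SIT1 (15.2%). Without 0.5SD7K replicate 2, both restrictions changed 6 of the 10 genes, and 3986 of all 6164 genes then tested. The interaction was then called for 4 of the 10, and for 2927 of the 6164.

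Over all 4 media at once, 8 of the genes differed, against 71.9% of all genes, and FTR1 (edgeR adjusted p = 0.241) and FRE2 (edgeR adjusted p = 0.0839) did not pass. That count was 5 without replicate 1, 2 or 3 of 0.5SD1K, where 3970 to 4220 of all genes were called, against 4404 in the main fit. It was 9 without replicate 1 or 2 of 0.5SD7K, so at least 1 of FTR1 and FRE2 passed there. Of all genes, 4472 and 5186 were called in those fits. The 3 libraries of each group did not overlap for 5 of the 10 genes under potassium restriction at 2% glucose (64.2% of all genes) and for 4 at 0.5% glucose (52.8%). They did not overlap for 2 genes under glucose restriction at 7 mM potassium (51.3%), for 6 at 1 mM potassium (54.7%) and for 6 under both restrictions (70.4%). Since the counts moved without single libraries, no order is read between the shares called among the 10 genes and among all genes.

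The median log2 fold change of the 10 genes was -0.11 in 2SD1K over 2SD7K, -0.17 in 0.5SD1K over 0.5SD7K, -0.07 in 0.5SD7K over 2SD7K, -0.40 in 0.5SD1K over 2SD1K, and -0.47 in 0.5SD1K over 2SD7K. Over all genes tested these medians lay between -0.02 and 0.03. The comparisons share libraries, so their values are set side by side.

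**Figure D2:**
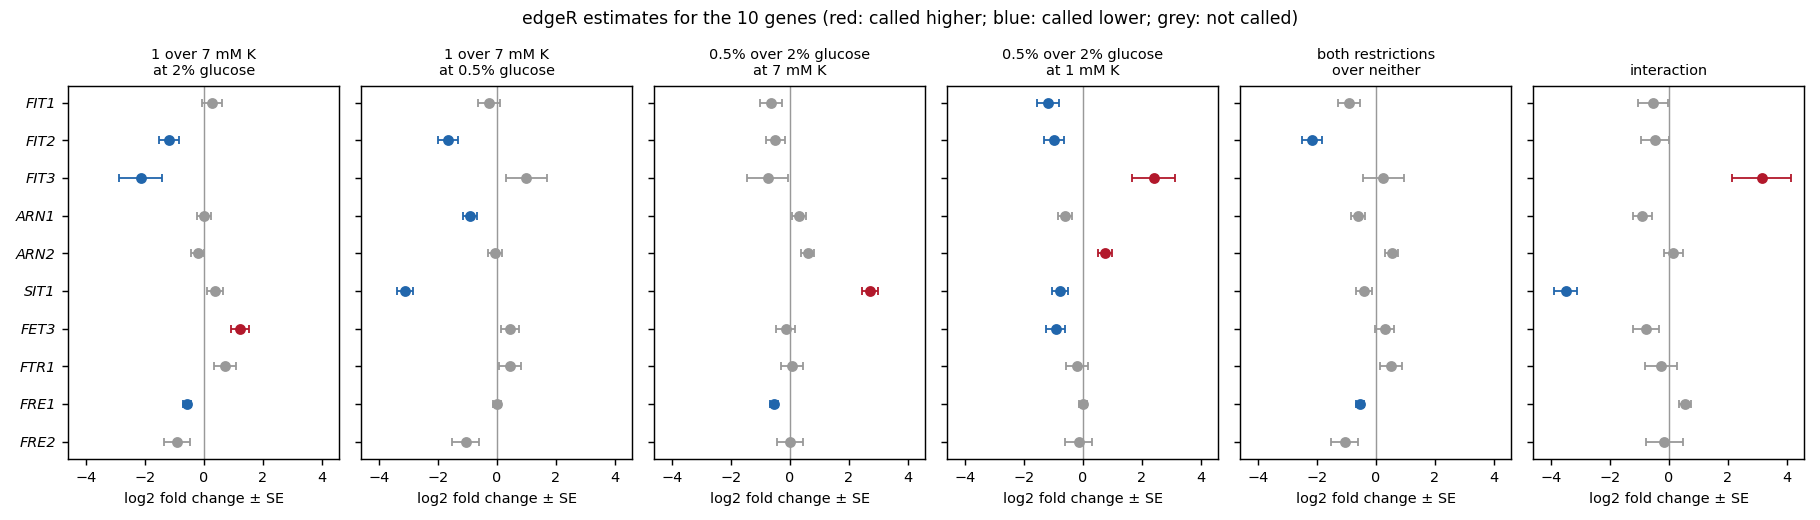
Log2 fold change ± SE of the 10 genes from edgeR in the 5 pairwise comparisons and the interaction, with red for genes called higher, blue for genes called lower and grey for genes not called. SIT1 stands at 2.72 for 0.5% over 2% glucose at 7 mM potassium and at -3.12 for 1 over 7 mM potassium at 0.5% glucose, and FIT2 lies below 0 in every panel.

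Of the siderophore transporter genes, SIT1 differed most between media. SIT1 encodes a transporter for ferrioxamine-type siderophores (chromosome V, 27657 to 29543, plus strand) and had 24.1, 19.4 and 23.4 CPM in 0.5SD1K, 174, 177 and 231 CPM in 0.5SD7K, 33.1, 26.3 and 55.2 CPM in 2SD1K, and 33.7, 33.2 and 21.1 CPM in 2SD7K. All 3 libraries of 0.5SD7K stood above the other 9, among which neighbouring media overlapped. Replicate 2 of 0.5SD7K lay between its partners for SIT1.

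Glucose restriction at 7 mM potassium raised SIT1 by 2.72 ± 0.28 (edgeR adjusted p = 2.65e-05), a 6.60-fold difference. Potassium restriction at 0.5% glucose lowered it, with -3.12 ± 0.28 (edgeR adjusted p = 9.55e-06). At 2% glucose the potassium difference was 0.38 ± 0.27 (edgeR adjusted p = 0.305), and the interaction was -3.50 ± 0.38 (edgeR adjusted p = 0.000102). The effect of potassium on SIT1 thus differed between the glucose levels.

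At 1 mM potassium, glucose restriction lowered SIT1, with -0.77 ± 0.27 (edgeR adjusted p = 0.0442). That call was lost without 2SD1K replicate 1 (-0.92) or 3 (-0.42), without 2SD7K replicate 1 or 2 (-0.81 and -0.81), and without 0.5SD1K replicate 1, 2 or 3 (-0.89, -0.73 and -0.83). Both restrictions against neither gave -0.39 ± 0.27 (edgeR adjusted p = 0.249).

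ARN1, whose product carries ferrichrome-type siderophores (chromosome VIII, 19088 to 20971, minus strand), had 57.6, 59.5 and 67.7 CPM in 0.5SD1K, 109.6, 103 and 132 CPM in 0.5SD7K, 80.0, 66.0 and 134 CPM in 2SD1K, and 108, 96.1 and 76.5 CPM in 2SD7K. The 0.5SD1K libraries were low, though their range touched that of 2SD1K. Potassium restriction at 0.5% glucose lowered ARN1, with -0.90 ± 0.24 (edgeR adjusted p = 0.00868). At 2% glucose the potassium difference was 0.00 in size (edgeR adjusted p = 0.991), and its sign turned under other scalings. The interaction of -0.90 ± 0.33 (edgeR adjusted p = 0.0616) was not called, and was called under the 3 other scalings tried, without 2SD1K replicate 2 (-1.15) and without 0.5SD7K replicate 2 (-0.98). Glucose restriction gave 0.30 ± 0.23 (edgeR adjusted p = 0.349) at 7 mM potassium and -0.60 ± 0.24 (edgeR adjusted p = 0.0702) at 1 mM potassium. The value at 1 mM potassium was called under the same 3 scalings, without 2SD1K replicate 2 (-0.85) and without 0.5SD7K replicate 2 (-0.61), and was -0.25 without 2SD1K replicate 3.

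ARN2 encodes a transporter for triacetylfusarinine-type siderophores (chromosome VIII, 8351 to 10213, minus strand) and had 107, 103 and 149 CPM in 0.5SD1K, 137, 83.2 and 154 CPM in 0.5SD7K, 74.9, 65.3 and 73.0 CPM in 2SD1K, and 92.2, 86.9 and 67.7 CPM in 2SD7K. In 1 mM potassium the 3 libraries with 0.5% glucose lay above the 3 with 2% glucose, and in 7 mM potassium the groups overlapped. Glucose restriction raised ARN2 at 1 mM potassium by 0.75 ± 0.23 (edgeR adjusted p = 0.0231). The call was lost without 2SD1K replicate 1 (0.74) or 2 (0.65), without 0.5SD1K replicate 3 (0.55), and under scaling by library totals (0.47). At 7 mM potassium the difference was 0.60 ± 0.23 (edgeR adjusted p = 0.0589), and it was called without 0.5SD7K replicate 2 (0.82) and without 0.5SD1K replicate 3 (0.60). Potassium restriction gave -0.21 ± 0.23 (edgeR adjusted p = 0.508) at 2% and -0.06 ± 0.22 (edgeR adjusted p = 0.838) at 0.5% glucose.

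The coding sequences of ARN1 and ARN2 were 61.4% identical in a global alignment, and those of ARN1 and SIT1 58.7%. For each of the 10 genes, 0 windows of 50 coding bases occurred outside the gene, so no exact sharing was seen at that length. Within a library, SIT1 over ARN1 in CPM was 0.364 ± 0.0485 in 0.5SD1K, 1.68 ± 0.0841 in 0.5SD7K, 0.408 ± 0.00899 in 2SD1K and 0.311 ± 0.0353 in 2SD7K (SD, n = 3). The ratio stood apart in 0.5SD7K alone of the 4 media, the medium where both genes had their highest mean.

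**Figure D3:**
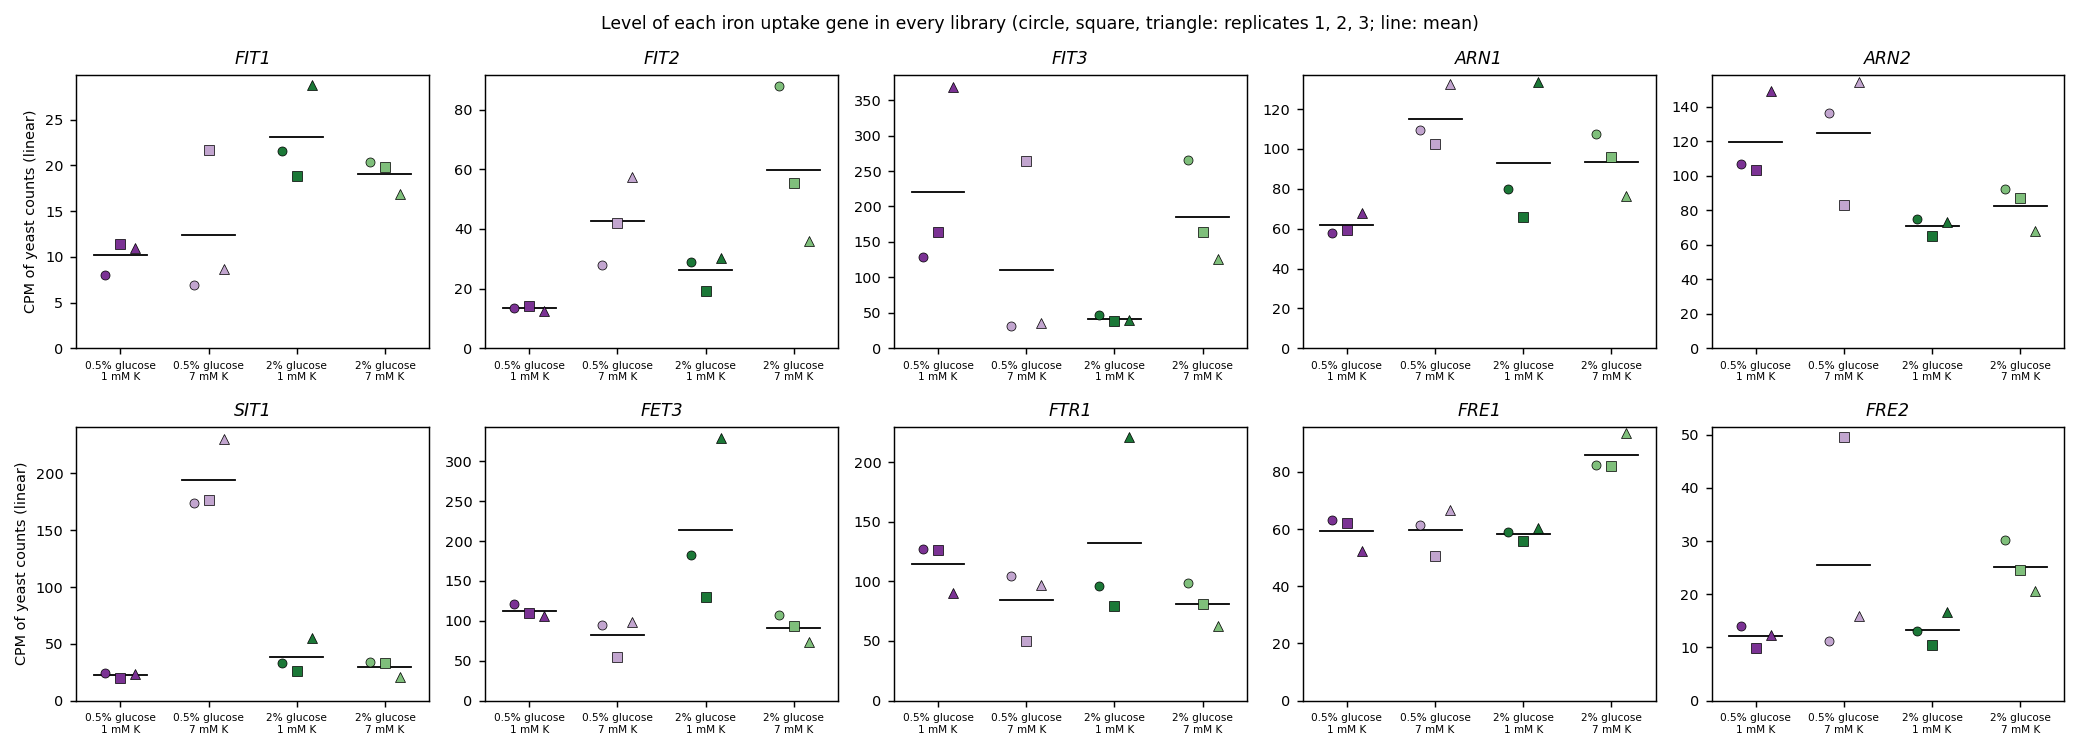
CPM of yeast counts (linear axes from 0) of each of the 10 genes in all 12 libraries, by medium, with circles, squares and triangles for replicates 1, 2 and 3 and lines for group means. SIT1 lies at 174 to 231 CPM in 0.5SD7K and at 55.2 CPM or less in the other 9 libraries, and FIT3 in 0.5SD7K is split between 264 CPM in replicate 2 and 31.6 and 35.9 CPM in its partners.

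Among the cell wall genes, FIT2 was lowest where both restrictions met. FIT2 (chromosome XV, 1059531 to 1059992, plus strand) had 13.6, 14.1 and 12.4 CPM in 0.5SD1K, 28.0, 42.1 and 57.5 CPM in 0.5SD7K, 28.9, 19.3 and 30.4 CPM in 2SD1K, and 88.0, 55.5 and 36.0 CPM in 2SD7K. The 0.5SD1K libraries lay below the other 9. Potassium restriction lowered FIT2 at 0.5% glucose, with -1.67 ± 0.34 (edgeR adjusted p = 0.00215), and at 2% glucose, with -1.19 ± 0.33 (edgeR adjusted p = 0.0188). Both restrictions against neither gave -2.16 ± 0.35 (edgeR adjusted p = 0.000394).

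The fall of FIT2 at 2% glucose lost its call without 2SD1K replicate 1 or 2 (-1.24 and -0.99), without 2SD7K replicate 1 (-0.80) and under scaling by library totals (-0.94). Glucose restriction gave -0.49 ± 0.32 (edgeR adjusted p = 0.262) at 7 mM potassium and -0.97 ± 0.34 (edgeR adjusted p = 0.0459) at 1 mM potassium. The call at 1 mM potassium was lost without 2SD1K replicate 1 or 3 (-0.94 and -0.85), without 2SD7K replicate 2 (edgeR adjusted p = 0.0590), and without 0.5SD1K replicate 1, 2 or 3 (-1.02, -1.04 and -0.94). The interaction of -0.48 ± 0.47 (edgeR adjusted p = 0.473) was not called.

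FIT3 lies next to FIT2, on the other strand (chromosome XV, 1060441 to 1061055, minus strand), with 448 bases between the coding ends, and its levels ran differently. It had 128, 164 and 369 CPM in 0.5SD1K, 31.6, 264 and 35.9 CPM in 0.5SD7K, 46.5, 38.4 and 40.2 CPM in 2SD1K, and 266, 164 and 126 CPM in 2SD7K. Replicate 2 of 0.5SD7K was 7.83-fold the mean of its partners, and replicate 3 of 0.5SD1K was 2.53-fold. With both restrictions or with neither, FIT3 was at 126 CPM or more in all 6 libraries, and with 1 restriction it was at 46.5 CPM or less in all but that replicate 2.

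Potassium restriction at 2% glucose lowered FIT3, with -2.15 ± 0.72 (edgeR adjusted p = 0.0447). Without any 1 of the 6 libraries compared the call was lost, with values of -2.37 to -1.79, and it was also lost without 0.5SD1K replicate 1, 2 or 3 (-2.14 each). At 0.5% glucose potassium restriction gave 1.00 ± 0.70 (edgeR adjusted p = 0.255), and 2.72, called, without 0.5SD7K replicate 2 (edgeR adjusted p = 0.000429). The interaction was 3.15 ± 1.00 (edgeR adjusted p = 0.0338), and 4.85 without that replicate (edgeR adjusted p = 7.96e-05). The potassium effect on FIT3 thus differed between glucose levels, and in the direction opposite to that on SIT1.

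The FIT3 interaction lost its call without any 1 of 9 libraries: 2SD1K replicates 1, 2 and 3 (3.15, 3.01 and 3.07), 2SD7K replicates 1 and 2 (2.73 and 3.15), 0.5SD1K replicates 2 and 3 (3.24 and 2.497), and 0.5SD7K replicates 1 and 3 (2.63 and 2.65). Glucose restriction raised FIT3 at 1 mM potassium by 2.40 ± 0.73 (edgeR adjusted p = 0.0240). It had no call without 0.5SD1K replicate 3 (1.79) or 2SD1K replicate 1, 2 or 3 (2.43, 2.30 and 2.36). At 7 mM potassium it gave -0.75 ± 0.70 (edgeR adjusted p = 0.430), and -2.45, called, without 0.5SD7K replicate 2 (edgeR adjusted p = 0.00118).

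Within libraries, FIT3 over FIT2 in CPM was 9.39, 11.7 and 29.7 in 0.5SD1K, 1.13, 6.28 and 0.625 in 0.5SD7K, 1.61, 1.99 and 1.32 in 2SD1K, and 3.02, 2.95 and 3.49 in 2SD7K. The ratio was higher in all 3 libraries of 0.5SD1K than in the other 9, a difference that was not tested. The FIT2 and FIT3 coding sequences were 47.5% identical. Whether counting used the strand is not given in the sources used here, and no coding sequence of the 10 genes overlapped another annotated row.

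**Figure D4:**
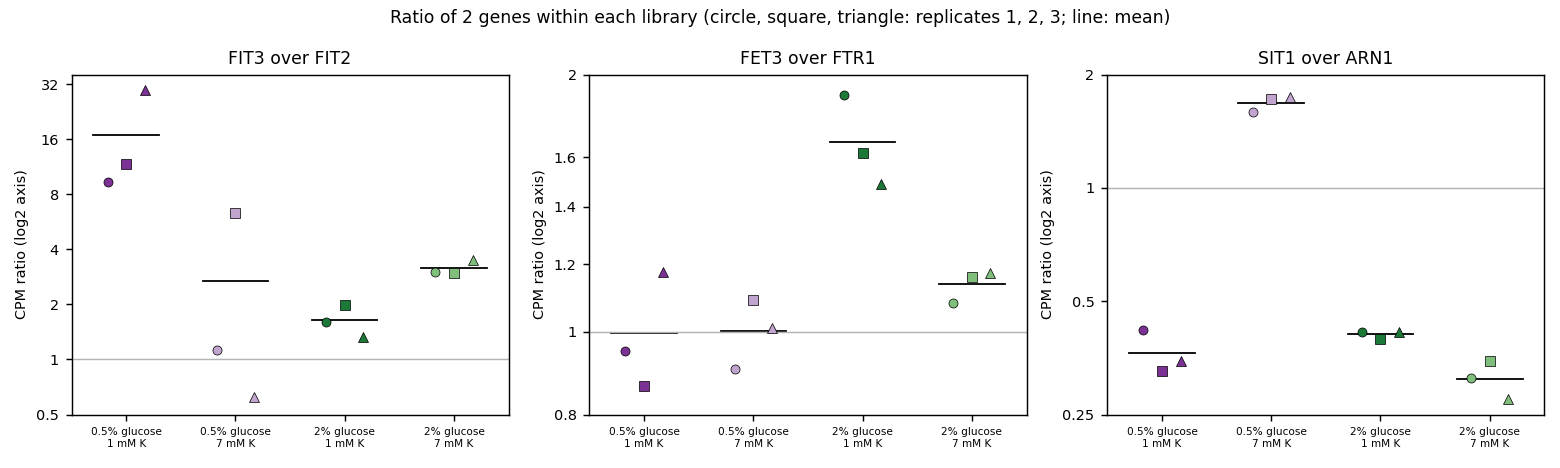
CPM ratios of FIT3 over FIT2, FET3 over FTR1 and SIT1 over ARN1 within each of the 12 libraries, on log2 axes, with circles, squares and triangles for replicates 1, 2 and 3 and lines for means. FIT3 over FIT2 is 9.39 or more in the 3 libraries of 0.5SD1K and 6.28 or less in the other 9.

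FIT1, the other cell wall gene (chromosome IV, 1503314 to 1504900, minus strand), had 8.03, 11.4 and 11.0 CPM in 0.5SD1K, 6.97, 21.6 and 8.63 CPM in 0.5SD7K, 21.5, 18.9 and 28.8 CPM in 2SD1K, and 20.4, 19.9 and 16.9 CPM in 2SD7K. Apart from replicate 2 of 0.5SD7K, all libraries with 0.5% glucose lay below all with 2% glucose. Glucose restriction at 1 mM potassium lowered FIT1, with -1.19 ± 0.36 (edgeR adjusted p = 0.0251). This call was lost without 2SD1K replicate 3 (edgeR adjusted p = 0.0987) and without 0.5SD1K replicate 1, 2 or 3 (-1.09, -1.33 and -1.27). At 7 mM potassium the difference was -0.64 ± 0.36 (edgeR adjusted p = 0.194), and -1.29, called, without 0.5SD7K replicate 2 (edgeR adjusted p = 0.000787). Potassium restriction gave 0.28 ± 0.35 (edgeR adjusted p = 0.576) at 2% and -0.27 ± 0.37 (edgeR adjusted p = 0.567) at 0.5% glucose, and the last was 0.38 without that library (edgeR adjusted p = 0.209). FIT1 holds internal repeats, and 11.9% of its windows of 50 coding bases recurred within the gene.

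FET3 and FTR1 encode the high-affinity uptake pair, and FET3 had its highest mean in 2SD1K. FET3 (chromosome XIII, 388822 to 390732, plus strand) had 121, 109.6 and 107 CPM in 0.5SD1K, 94.8, 54.8 and 98.4 CPM in 0.5SD7K, 183, 129 and 329.6 CPM in 2SD1K, and 107, 93.8 and 73.6 CPM in 2SD7K. The 3 libraries of 2SD1K lay above the other 9, and its replicate 3 was 2.11-fold the mean of its partners. Potassium restriction at 2% glucose raised FET3 by 1.23 ± 0.32 (edgeR adjusted p = 0.0133). The value was 0.75, with no call, without 2SD1K replicate 3 (edgeR adjusted p = 0.0588), and 1.09, with no call, without 2SD7K replicate 3 (edgeR adjusted p = 0.0639).

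At 0.5% glucose the potassium difference of FET3 was 0.44 ± 0.31 (edgeR adjusted p = 0.265). The interaction of -0.79 ± 0.44 (edgeR adjusted p = 0.203) was not called, so the potassium effects were not shown to differ. Glucose restriction at 1 mM potassium lowered FET3, with -0.93 ± 0.31 (edgeR adjusted p = 0.0380). This call was lost without 2SD1K replicate 3 (-0.48), without 2SD7K replicate 2 (-0.97), and without 0.5SD1K replicate 1, 2 or 3 (-1.04, -0.96 and -0.92).

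FTR1 (chromosome V, 460526 to 461740, minus strand) had 127, 127 and 90.7 CPM in 0.5SD1K, 105, 50.3 and 97.3 CPM in 0.5SD7K, 96.4, 79.8 and 221 CPM in 2SD1K, and 98.7, 81.0 and 62.9 CPM in 2SD7K. Neighbouring media overlapped throughout, and no comparison called FTR1 in the main fit. Both restrictions against neither gave 0.51 ± 0.38 (edgeR adjusted p = 0.279), called in a fit to those groups alone (edgeR adjusted p = 0.0446). Its highest mean, 132 CPM in 2SD1K, rested on replicate 3, without which it was 88.1 CPM, below the 115 CPM of 0.5SD1K. Potassium restriction gave 0.71 ± 0.37 (edgeR adjusted p = 0.174) at 2%, or 0.11 without that library (edgeR adjusted p = 0.827), and 0.45 ± 0.37 (edgeR adjusted p = 0.341) at 0.5% glucose. Within libraries, FET3 over FTR1 in CPM was 0.996 ± 0.160 in 0.5SD1K, 1.00 ± 0.0925 in 0.5SD7K, 1.67 ± 0.207 in 2SD1K and 1.14 ± 0.0489 in 2SD7K (SD, n = 3). It was 1.49 to 1.89 in the libraries of 2SD1K, above the other 9, a difference that was not tested. Of all pairs of the 10 genes, FET3 and FTR1 had the highest correlation of log2 CPM over the 12 libraries (Pearson r = 0.845), a description of libraries that share media.

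FRE1, the gene of a surface ferric and cupric reductase (chromosome XII, 568567 to 570627, plus strand), was highest with neither restriction. It had 63.1, 62.2 and 52.3 CPM in 0.5SD1K, 61.4, 50.5 and 66.8 CPM in 0.5SD7K, 59.0, 55.8 and 60.4 CPM in 2SD1K, and 82.3, 82.2 and 93.6 CPM in 2SD7K. The 2SD7K libraries lay above the other 9, among which the media overlapped. FRE1 fell with potassium restriction at 2% glucose, with -0.56 ± 0.14 (edgeR adjusted p = 0.00997), with glucose restriction at 7 mM potassium, with -0.53 ± 0.14 (edgeR adjusted p = 0.0108), and with both, with -0.54 ± 0.14 (edgeR adjusted p = 0.00698). The second restriction added no called difference: potassium restriction at 0.5% glucose gave -0.01 ± 0.14 (edgeR adjusted p = 0.959) and glucose restriction at 1 mM potassium 0.02 ± 0.14 (edgeR adjusted p = 0.932).

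The calls of FRE1 depended on scaling. Under library totals, 2SD1K over 2SD7K gave -0.31, 0.5SD7K over 2SD7K -0.44 and 0.5SD1K over 2SD7K -0.53, with no call. Under upper-quartile scaling the first 2 of these were -0.37 and -0.41, with no call, and without 2SD7K replicate 3 they were -0.49 and -0.46, with no call. The interaction of 0.55 ± 0.19 (edgeR adjusted p = 0.0503) was not called, and was called without 0.5SD1K replicate 3 (0.60) and without 0.5SD7K replicate 2 (0.44).

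FRE2, a second surface reductase gene (chromosome XI, 9091 to 11226, minus strand), had 13.9, 9.80 and 12.4 CPM in 0.5SD1K, 11.2, 49.5 and 15.9 CPM in 0.5SD7K, 13.0, 10.4 and 16.6 CPM in 2SD1K, and 30.1, 24.6 and 20.6 CPM in 2SD7K. The 2SD7K libraries lay above all 6 with 1 mM potassium, and replicate 2 of 0.5SD7K was higher still. No comparison called FRE2 in the main fit. Both restrictions against neither gave -1.06 ± 0.46 (edgeR adjusted p = 0.0765). That value was called without 0.5SD7K replicate 1 or 2, under 1 other scaling, and in a fit to those groups alone. Potassium restriction at 2% glucose gave -0.91 ± 0.45 (edgeR adjusted p = 0.149), and -0.89, called, without 0.5SD7K replicate 2 (edgeR adjusted p = 0.00457). At 0.5% glucose it gave -1.06 ± 0.46 (edgeR adjusted p = 0.0742), and -0.15 without that library (edgeR adjusted p = 0.638). It was called without replicate 1 or 3 of 0.5SD7K, with -1.48 (edgeR adjusted p = 0.0137) and -1.37 (edgeR adjusted p = 0.0421). Glucose restriction at 7 mM potassium gave 0.01 ± 0.44 (edgeR adjusted p = 0.992), and -0.89, called, without it (edgeR adjusted p = 0.0113). The FRE1 and FRE2 coding sequences were 50.8% identical.

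Per kilobase of coding sequence, averaged over the 4 media, FIT3 stood highest at 227 CPM per kb. FTR1 had 84.9, FIT2 76.8, FET3 65.4, ARN2 53.4, ARN1 48.2, SIT1 37.6 and FRE1 31.9 CPM per kb. FIT1, with 10.2, and FRE2, with 8.90 CPM per kb, were lowest. This order changed with the medium: in 2SD1K, FIT3 averaged 67.8 CPM per kb, below FET3 with 112 and FTR1 with 109 CPM per kb. SIT1 averaged 11.8 CPM per kb in 0.5SD1K and 103 CPM per kb in 0.5SD7K.

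Replicates of 1 medium also differed in these genes. Replicate 3 of 2SD1K was above the mean of its partners for 9 of the 10 genes, as was replicate 1 of 2SD7K. Replicate 2 of 2SD1K was above for 0 of them and replicate 3 of 2SD7K for 1. How many of all genes lay above the partners is not given here, so these counts are a description. In replicate 3 of 2SD1K, FTR1 was 2.51-fold, FET3 2.11-fold, SIT1 1.86-fold and ARN1 1.83-fold the mean of the partners. In that library 2 of the 10 genes and 0.767% of all genes tested were at least 2-fold above the partners. Its share of yeast counts at ribosomal RNA rows was 0.988%, against 2.03% and 1.88% in its partners. This share also differed between media, with 2.29% to 2.62% in 0.5SD1K, 1.23% to 1.45% in 0.5SD7K, 0.988% to 2.03% in 2SD1K and 0.793% to 1.02% in 2SD7K, and was higher in all libraries of 0.5SD1K, where SIT1, ARN1 and FIT2 were low, than in the other 9. The part of these differences in the results was not tested. Replicate 2 of 0.5SD7K was at least 2-fold above its partners for FIT1, FIT3 and FRE2, as it was for 10.2% of all genes tested. It was 0.498-fold for FTR1 and 0.567-fold for FET3. With 0.5 CPM added to both sides, 16.3% of all genes tested and 0 of the 10 were at least 2-fold below there.

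**Figure D5:**
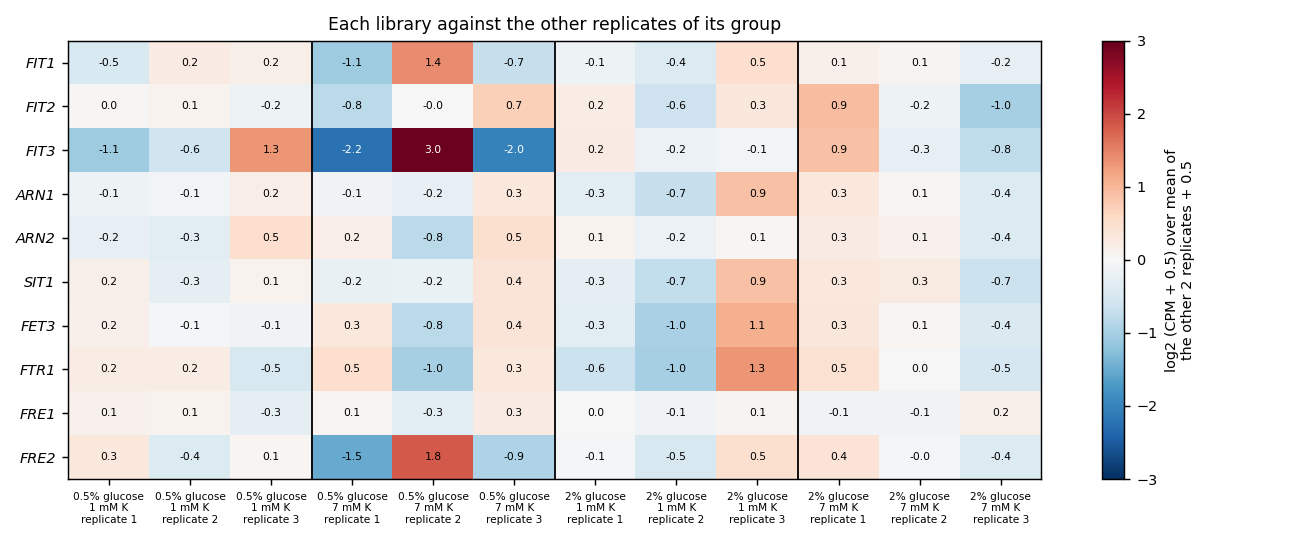
Log2 ratio of each library to the mean of the other 2 replicates of its medium, for the 10 genes, with 0.5 CPM added to both. FTR1, FET3, SIT1 and ARN1 are high in replicate 3 of 2SD1K (1.32, 1.08, 0.88 and 0.87), and FIT3, FRE2 and FIT1 in replicate 2 of 0.5SD7K (2.95, 1.83 and 1.42).

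Other genes of iron handling were read from lists chosen by function, with the share of all genes tested that moved the same way in brackets. Of 6 other ferric reductase genes, 3 fell (15.0%) and 0 rose (13.1%) with potassium restriction at 2% glucose, and 2 fell (24.9%) and 2 rose (23.5%) at 0.5% glucose. Without 0.5SD7K replicate 2, 5 fell at 2% glucose, against 23.9% of all genes, and 3 fell at 0.5% glucose, against 28.2%. FRE3, which acts on siderophore iron, averaged 22.4 ± 1.69 CPM in 0.5SD1K, 51.5 ± 15.0 CPM in 0.5SD7K, 38.4 ± 5.92 CPM in 2SD1K and 59.9 ± 7.55 CPM in 2SD7K (SD, n = 3). It fell with potassium restriction at both glucose levels, with -0.64 ± 0.22 (edgeR adjusted p = 0.0446) at 2% and -1.20 ± 0.22 (edgeR adjusted p = 0.00107) at 0.5%. The call at 2% glucose was lost without any 1 of 10 libraries, all but replicates 1 and 2 of 0.5SD7K. FRE7, a reductase gene of the copper response, fell in the same comparisons, with -1.25 ± 0.25 (edgeR adjusted p = 0.00357) and -1.50 ± 0.26 (edgeR adjusted p = 0.000813). FRE5 averaged 303 ± 193 CPM in 0.5SD1K, 101 ± 43.2 CPM in 0.5SD7K, 74.4 ± 10.9 CPM in 2SD1K and 176 ± 15.6 CPM in 2SD7K (SD, n = 3) and had a positive interaction, 2.84 ± 0.55 (edgeR adjusted p = 0.00284). FRE6, a reductase gene of the vacuole, fell with both restrictions, with -1.04 ± 0.23 (edgeR adjusted p = 0.00298).

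Of 8 tested genes from a list of other low-iron responses, 5 rose (16.9%) and 3 fell (17.0%) with glucose restriction at 7 mM potassium, and 1 rose (23.5%) and 4 fell (24.9%) with potassium restriction at 0.5% glucose. Without 0.5SD7K replicate 2 the first of these counts was 3, against 22.0% of all genes. TIS11, also called CTH2, whose product binds messenger RNAs of iron-using proteins and speeds their decay, had 6.21, 8.38 and 18.2 CPM in 0.5SD1K, 52.9, 48.9 and 66.1 CPM in 0.5SD7K, 49.7, 31.8 and 42.7 CPM in 2SD1K, and 27.0, 25.5 and 16.7 CPM in 2SD7K. Its highest 2 media overlapped, and its 0.5SD1K libraries were close to or below the lowest of 2SD7K. TIS11 rose with glucose restriction at 7 mM potassium by 1.28 ± 0.33 (edgeR adjusted p = 0.0118) and fell with potassium restriction at 0.5% glucose, with -2.37 ± 0.36 (edgeR adjusted p = 0.000279), the directions of SIT1. Its rise had no call without 2SD7K replicate 3 (1.09). HMX1, the heme oxygenase gene, had 13.3, 11.9 and 18.4 CPM in 0.5SD1K, 29.7, 62.4 and 14.9 CPM in 0.5SD7K, 25.5, 21.8 and 31.0 CPM in 2SD1K, and 13.8, 16.3 and 15.4 CPM in 2SD7K. Its values in these comparisons, 1.22 ± 0.40 (edgeR adjusted p = 0.0356) and -1.28 ± 0.41 (edgeR adjusted p = 0.0215), rested on 0.5SD7K replicate 2, without which they were 0.55 (edgeR adjusted p = 0.119) and -0.61 (edgeR adjusted p = 0.0742), with no call. The first was also lost without 2SD1K replicate 1, any replicate of 2SD7K, or 0.5SD1K replicate 1 or 2, and the second without 0.5SD1K replicate 1 or 2. VHT1, for biotin uptake, fell with glucose restriction at 7 mM potassium, with -2.22 ± 0.42 (edgeR adjusted p = 0.00167), as did TMT1, a methyltransferase gene, with -1.78 ± 0.23 (edgeR adjusted p = 0.000124). ECM4, a glutathione transferase gene, fell with potassium restriction at 0.5% glucose, with -1.15 ± 0.29 (edgeR adjusted p = 0.00705), or -0.66 without 0.5SD7K replicate 2.

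Among 11 other transporter genes, 7 fell (24.9%) and 0 rose (23.5%) with potassium restriction at 0.5% glucose, and 4 rose (16.9%) and 1 fell (17.0%) with glucose restriction at 7 mM potassium. ENB1, the enterobactin transporter gene of the Arn family, rose with glucose restriction by 0.49 ± 0.15 (edgeR adjusted p = 0.0273) and fell with potassium restriction, with -0.58 ± 0.15 (edgeR adjusted p = 0.00849), in these comparisons. The rise had no call without 2SD7K replicate 2 or 3 (0.48 and 0.41). SMF3, which exports iron from the vacuole, likewise rose, with 0.66 ± 0.13 (edgeR adjusted p = 0.00181), and fell, with -0.90 ± 0.13 (edgeR adjusted p = 0.000173). So did FET4, the low-affinity iron transporter gene, with 0.76 ± 0.19 (edgeR adjusted p = 0.0105) and -1.07 ± 0.20 (edgeR adjusted p = 0.00101). CCC1, which loads iron into the vacuole, fell with potassium restriction at 2% glucose, with -0.80 ± 0.15 (edgeR adjusted p = 0.00234), as did MRS3, a mitochondrial iron carrier gene, with -2.43 ± 0.23 (edgeR adjusted p = 2.41e-05).

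Of 7 regulator genes, 1 rose (13.1%) and 2 fell (15.0%) with potassium restriction at 2% glucose, and 2 rose (23.5%) and 0 fell (24.9%) at 0.5% glucose. With 0.5SD7K replicate 2 left out, 3 fell (23.9%) at 2% glucose and 1 fell (28.2%) at 0.5% glucose. AFT1 averaged 38.5 ± 6.27 CPM in 0.5SD1K, 34.6 ± 6.81 CPM in 0.5SD7K, 61.4 ± 16.7 CPM in 2SD1K and 54.3 ± 3.44 CPM in 2SD7K (SD, n = 3), and fell with glucose restriction, with -0.65 ± 0.21 (edgeR adjusted p = 0.0355) at 7 mM and -0.67 ± 0.21 (edgeR adjusted p = 0.0291) at 1 mM potassium. The first call was lost without 0.5SD7K replicate 2 (-0.50) or 3, any replicate of 2SD7K, 2SD1K replicate 1, or 0.5SD1K replicate 1 or 2, and the second without 2SD1K replicate 3 (-0.44) or 0.5SD1K replicate 3 (-0.57). Potassium restriction gave 0.18 ± 0.21 (edgeR adjusted p = 0.554) at 2% and 0.15 ± 0.22 (edgeR adjusted p = 0.579) at 0.5% glucose for AFT1. AFT2, its paralog, was not called over the 4 media together (edgeR adjusted p = 0.0609). GRX4, a glutaredoxin gene whose product restrains Aft1, fell with potassium restriction at 2% glucose, with -0.73 ± 0.13 (edgeR adjusted p = 0.00140). GRX3, its partner, rose there by 0.44 ± 0.11 (edgeR adjusted p = 0.00958), with no call without 2SD7K replicate 3 (0.40). BOL2, also called FRA2, whose product acts on Aft1 with these glutaredoxins, rose with potassium restriction at 0.5% glucose by 0.73 ± 0.17 (edgeR adjusted p = 0.00494).

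Copper reaches Fet3 through the pump Ccc2. Of 9 tested genes in the copper list, 5 rose (23.5%) and 1 fell (24.9%) with potassium restriction at 0.5% glucose, and 1 rose (13.1%), or 2 (26.6%) without 0.5SD7K replicate 2, and 1 fell (15.0%) at 2% glucose. CCC2 fell in both, with -0.96 ± 0.20 (edgeR adjusted p = 0.00477) at 2% and -0.99 ± 0.21 (edgeR adjusted p = 0.00221) at 0.5% glucose. GEF1, a chloride transporter gene needed for copper loading of Fet3, rose in both, by 0.68 ± 0.14 (edgeR adjusted p = 0.00471) at 2% and 0.62 ± 0.15 (edgeR adjusted p = 0.00441) at 0.5% glucose. CUP2, the copper-responsive regulator gene, rose at 0.5% glucose by 2.87 ± 0.37 (edgeR adjusted p = 0.000104). CUP1-1, its metallothionein target, gave 1.42 ± 0.39 (edgeR adjusted p = 0.0105) there, an uncertain value since the gene has a near-identical copy.

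Genes that use iron were read last. Of 18 genes for iron-using enzymes, 12 fell (18.4%) and 2 rose (16.3%) with glucose restriction at 1 mM potassium, 7 fell (17.0%) and 1 rose (16.9%) at 7 mM potassium, and 9 fell (24.5%) and 1 rose (22.8%) with both restrictions. Their median log2 fold changes were -0.80, -0.53 and -0.84, against -0.02, 0.03 and 0.03 over all genes. With 0.5SD7K replicate 2 left out, 9 of the 18 fell (21.8%) and 2 rose (22.0%) at 7 mM potassium. With both restrictions, 12 fell (31.3%) and 3 rose (33.4%) in that fit. LEU1, an iron-sulfur enzyme gene of leucine synthesis, fell with glucose restriction at 7 mM potassium, with -3.19 ± 0.28 (edgeR adjusted p = 8.47e-06). MET5, for sulfite reductase, and BIO2, for biotin synthase, fell there too, with -2.15 ± 0.20 (edgeR adjusted p = 1.42e-05) and -1.24 ± 0.21 (edgeR adjusted p = 0.000794). GLT1, for glutamate synthase, fell with potassium restriction at 0.5% glucose, with -1.59 ± 0.21 (edgeR adjusted p = 0.000106). Of 16 iron-sulfur cluster assembly genes, 4 rose (16.9%), or 3 (22.0%) without 0.5SD7K replicate 2, and 4 fell (17.0%) with glucose restriction at 7 mM potassium. Those that fell were the scaffold gene ISU2, with -3.23 ± 0.31 (edgeR adjusted p = 1.73e-05), the exporter gene ATM1, with -1.44 ± 0.15 (edgeR adjusted p = 2.57e-05), the ferredoxin gene YAH1, with -1.22 ± 0.18 (edgeR adjusted p = 0.000330), and ISA1, with -0.88 ± 0.13 (edgeR adjusted p = 0.000345). Of 8 heme synthesis genes, 1 rose (16.9%) and 2 fell (17.0%) there: HEM15, for the step that inserts iron, rose by 0.91 ± 0.16 (edgeR adjusted p = 0.00108), and HEM13 and HEM12 fell, with -1.93 ± 0.19 (edgeR adjusted p = 2.15e-05) and -1.04 ± 0.12 (edgeR adjusted p = 6.76e-05). HEM14 fell with potassium restriction at 0.5% glucose, with -0.95 ± 0.20 (edgeR adjusted p = 0.00267).

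By position, 7 of the 10 genes lay within 31299 bases of a chromosome end, against 6.61% of 6398 nuclear rows. That distance is the one of FIT2, the farthest of the 7, so the count is a description. The exceptions were FET3, FTR1 and FRE1. Of 341 other tested genes as near to an end, 37.8% fell and 14.1% rose with potassium restriction at 0.5% glucose. Among all genes 24.9% fell and 23.5% rose. With glucose restriction at 7 mM potassium 19.4% fell and 19.6% rose, against 17.0% and 16.9%. Their median log2 fold changes were -0.38 and 0.04, against -0.02 and 0.03 over all genes. Under potassium restriction at 2% glucose 21.1% fell and 10.3% rose, against 15.0% and 13.1%. At 1 mM potassium, glucose restriction lowered 22.9% and raised 13.8%, against 18.4% and 16.3%. Both restrictions lowered 34.3% and raised 12.9%, against 24.5% and 22.8%. The part of position in the changes of SIT1, ARN1 and FIT2 was not tested.

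After each gene was scaled over the 12 libraries, the average of the 10 gave a profile that its own members matched unevenly. Their Pearson r with it ran from 0.0228 for ARN2 and 0.0506 for FIT3 to 0.822 for FIT2 and 0.865 for ARN1. Each of the 10 is itself part of that average, which lifts its r. The 6 other genes most like this average, among those with a mean of at least 10 CPM, were RGT2 (r = 0.748), WSC4 (0.738), DAS1 (0.737), AZR1 (0.723), BUL2 (0.719) and RED1 (0.715). These were picked as the highest of all genes tested and carry no test.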

How the data were processed

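RNA sequencing of 12 libraries was analysed. Per the labels and the submitters' processing notes, RSEM 1.3.3 estimated counts from reads that STAR 2.7.1a had aligned to build R64. The deposited values are expected counts per gene, all whole numbers as deposited (0 values were not whole), so they were used without rounding. The table held 46904 rows, of which 7127 had SGD and 39777 WBGene identifiers. Names and positions came from the RefSeq copy of R64, which matched 6444 SGD rows (90.4%), and 683 did not match. Whether counting used the strand is not given in the sources used here.

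WBGene rows were left out of library sizes except in 1 alternative scaling. In edgeR 4.0.16, libraries were scaled by TMM over SGD rows, rows were kept with the default count filter, and a robust quasi-likelihood model with 1 mean per medium was fitted to all 12 libraries. It had 8 residual degrees of freedom and a common biological coefficient of variation of 0.2405, and p-values were adjusted by Benjamini-Hochberg over 6127 genes. The precision rests on 51 to 2754 counts per gene and library for the 10 genes, and the fit covers counting error and the spread of replicates together. The script was first tested on simulated data that held known changes.

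The members and lists were chosen with earlier results of these data known. Named beside the 10 genes were, of each list, up to 4 genes called over the 4 media with the smallest p, plus AFT1, AFT2, ENB1, HMX1, TIS11 and CCC1. Each is given in a comparison chosen after its values were seen. CRS5 did not match a row and LSO1, with 33 counts over 12 libraries, was not tested. Same-numbered replicates deviated together, at r over 0.1, in 3 of 18 pairs (-0.366 to 0.328), and other-numbered ones in 13 of 36. Deviations from means of 3 libraries cannot exclude a shared day or culture, so whether the numbers pair the samples is not known. All 12 libraries carry the same batch label, so no batch could be compared. Alternatives were DESeq2 1.42.0, limma 3.58.1 voom, 3 other scalings, fits without the count filter, with the replicate number as a block, to the compared groups only, or without 1 library at a time. Sequences were searched in Python 3.11.15 with Biopython 1.88, and R 4.3.3, numpy 2.4.6, pandas 2.3.3 and matplotlib 3.10.9 were used.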

Additional observations from a re-analysis of the deposited data

Results flagged for a closer look

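The potassium effect on SIT1 differed between glucose levels by a test of the difference itself: the interaction was -3.50 ± 0.38 (edgeR adjusted p = 0.000102), with -3.12 ± 0.28 at 0.5% glucose and 0.38 ± 0.27 at 2% glucose. The values without each library lay between -3.76 and -3.14, all called.

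That of FIT3 differed in the other direction, with an interaction of 3.15 ± 1.00 (edgeR adjusted p = 0.0338), 1.00 ± 0.70 at 0.5% glucose and -2.15 ± 0.72 at 2% glucose. Its values without each library lay between 2.50 and 4.85, and it was called without 2SD7K replicate 3, 0.5SD1K replicate 1 and 0.5SD7K replicate 2.

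Rows with WBGene identifiers, which no comparison used, took 34.0% to 41.6% of the counts of a library. What these rows stand for is not given in the sources used here.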

How the results depend on the processing

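Of 19 called values, 6 kept their direction and call under every alternative and without each library in turn: FIT2, ARN1 and SIT1 under potassium restriction at 0.5% glucose, SIT1 under glucose restriction at 7 mM potassium, FIT2 under both restrictions, and the SIT1 interaction. None of the 19 changed direction under any of them. The cause of the lost calls was not tested, and the fits that leave out a library also have fewer samples. Other scalings shifted all genes together. Under WBGene rows the median over all genes became 0.30 in 2SD1K over 2SD7K, -0.34 in 0.5SD1K over 0.5SD7K, 0.23 in 0.5SD7K over 2SD7K and -0.45 in 0.5SD1K over 2SD1K. Depth was not the only limit on the errors: without 0.5SD7K replicate 2 the SE of FRE2 in 2SD1K over 2SD7K was 0.221, against 0.449 with it.

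Counts of the 10 genes called moved as follows, with the counts over all genes tested after each. In 2SD1K over 2SD7K, 4 were called, against 2 under upper-quartile scaling, library totals or WBGene rows, and 1 to 5 when leaving out each library. All genes gave 1719, 1180 to 1826, and 1075 to 3111. In 0.5SD1K over 0.5SD7K, 3 were called, against 4 with DESeq2 or WBGene rows, and 3 to 4. All genes gave 2966, 3235 or 2539, and 2430 to 3565. In 0.5SD7K over 2SD7K, 2 were called, against 1 under library totals or WBGene rows, and 1 to 6. All genes gave 2077, 1808 or 1611, and 1455 to 2701. In 0.5SD1K over 2SD1K, 6 were called, against 3 with limma voom, and 0 to 7. The 0, in edgeR without 0.5SD1K replicate 3, had 7 genes at an unadjusted p under 0.05, and DESeq2 on all libraries called 6. All genes gave 2130, against 2123 with voom, and 1667 to 3152. In 0.5SD1K over 2SD7K, 2 were called, against 4 with DESeq2, 7 in a fit to those groups alone, and 2 to 6. All genes gave 2904, against 3133, 3934 of 6047, and 2276 to 3986. The interaction had 2, against 1 to 4, and the test over all media 8, against 5 to 9. All genes gave 1835, against 1362 to 2927, and 4404, against 3889 to 5186.

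Beside the lost calls given with each gene, the call in 2SD1K over 2SD7K was lost under WBGene rows for FIT2 (-0.91) and FRE1 (-0.24), and under upper-quartile scaling or the replicate block for FIT3 (-1.96 and -2.17). Under WBGene rows it was also lost for FRE1 in 0.5SD7K over 2SD7K (-0.31), for FRE1 in 0.5SD1K over 2SD7K (-0.64) and for ARN2 in 0.5SD1K over 2SD1K (0.30). In 0.5SD1K over 2SD1K, FIT2, SIT1 and FET3 lost theirs with voom (-0.94, -0.71 and -0.81) and with the block. DESeq2 called FRE2 in 0.5SD1K over 0.5SD7K, ARN2 in 0.5SD7K over 2SD7K and the FRE1 interaction (0.58). It also called FIT1 (-0.92) and ARN1 (-0.61) in 0.5SD1K over 2SD7K. The main edgeR fit called none of these values, though other edgeR fits called each. In 0.5SD1K over 2SD7K it gave -0.91 for FIT1 (edgeR adjusted p = 0.0593) and -0.60 for ARN1 (edgeR adjusted p = 0.0546). Both were called without 0.5SD7K replicate 2. Leaving out each library, they ran from -1.03 to -0.79 and from -0.73 to -0.52. For the named genes of the other lists, the same settings were run after the data were seen. None of their called values given here changed direction, but some lost their call. Under library totals and WBGene rows these included CCC2 and GRX4 in 2SD1K over 2SD7K and GEF1 in 0.5SD1K over 0.5SD7K. WBGene rows also took that of CCC1 in 2SD1K over 2SD7K, and of BOL2 and CUP1-1 in 0.5SD1K over 0.5SD7K. FRE3 in 2SD1K over 2SD7K lost it under all 3 other scalings. In fits to the compared groups only, ECM4, ENB1 and HMX1 lost it in 0.5SD1K over 0.5SD7K. AFT1, not called, was -0.17 under WBGene rows in 0.5SD1K over 0.5SD7K and ran from -0.080 to 0.35 leaving out each library in 2SD1K over 2SD7K.

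With the replicate number as a block, glucose restriction at 1 mM potassium called 3 of the 10 genes, against 6 without it. Of all genes 1870 were called with it, against 2130. FRE2 in 0.5SD7K over 2SD7K turned to -0.079. The numbers are not known to pair samples.

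The remaining changes of sign, none in a called value, were these. For ARN1 in 2SD1K over 2SD7K the value was 0.20 under upper-quartile scaling, 0.25 under library totals, 0.30 under WBGene rows, 0.014 with no count filter, 0.039 in a fit to those groups alone, and -0.37 to 0.22 leaving out each library. There ARN2 was 0.032 under library totals and 0.079 under WBGene rows. In 0.5SD7K over 2SD7K, FET3 was 0.080 under WBGene rows, and FRE2 -0.040 under library totals and -0.33 with voom. In 0.5SD1K over 2SD1K, FRE1 was -0.10, -0.22 and -0.40 under upper-quartile scaling, library totals and WBGene rows, and -0.014 with no count filter. In the interaction, ARN2 was -0.10, -0.23 and -0.52 under those scalings, FRE1 -0.093 under WBGene rows, and FRE2 0.20 with voom.

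Leaving out each library gave values on both sides of 0 for others. SIT1 in 2SD1K over 2SD7K ran from -0.0017 to 0.62. In 0.5SD1K over 0.5SD7K, FIT1 ran from -0.61 to 0.38, ARN2 from -0.27 to 0.086 and FRE1 from -0.10 to 0.060. In 0.5SD7K over 2SD7K, FET3 ran from -0.28 to 0.081, FTR1 from -0.12 to 0.32 and FRE2 from -0.89 to 0.40. In 0.5SD1K over 2SD1K, FTR1 ran from -0.52 to 0.38, FRE1 from -0.067 to 0.084 and FRE2 from -0.34 to 0.039. FIT3 under both restrictions ran from -0.34 to 0.57. In the interaction, FIT1 ran from -0.91 to 0.087, ARN2 from -0.074 to 0.29, FTR1 from -0.58 to 0.32 and FRE2 from -0.58 to 0.74.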

Other observations

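Markers of mating type and of meiosis were read as checks of the labelled haploid strain. The summed level of the 4 genes specific to mating type alpha was 923 to 970 CPM in 0.5SD1K, 209 to 232 CPM in 0.5SD7K, 695 to 748 CPM in 2SD1K and 338 to 360 CPM in 2SD7K. All 4 rose with potassium restriction at 0.5% glucose, where SIT1, ARN1 and FIT2 fell. Of the genes specific to mating type a, MFA1 and MFA2 were at 0 throughout, and the sum of all 5 was 60.3 to 68.2 CPM in 0.5SD1K, 114 to 146 CPM in 0.5SD7K, 73.6 to 98.9 CPM in 2SD1K and 149 to 157 CPM in 2SD7K, most of it STE6. The sum of 6 genes of meiosis and sporulation was 137 to 144 CPM in 0.5SD1K, 152 to 240 CPM in 0.5SD7K, 90.0 to 118 CPM in 2SD1K and 151 to 165 CPM in 2SD7K. The part of these differences in the changes of the iron genes was not tested.

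ARN2 over ARN1 in CPM was 1.85, 1.73 and 2.21 in 0.5SD1K, 1.25, 0.810 and 1.17 in 0.5SD7K, 0.936, 0.990 and 0.547 in 2SD1K and 0.856, 0.904 and 0.884 in 2SD7K, highest in all 3 libraries of 0.5SD1K. FIT1 and ARN2 had the lowest correlation of log2 CPM of any pair of the 10 genes over the 12 libraries (Pearson r = -0.808), a description of libraries that share media.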
